A study of Mus musculus with 2 samples.

Results

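A chosen set of 10 genes whose products help switch MAP kinase signalling back off was compared between 2 libraries of transplant-antigen-specific CD4 T cells. These were the dual-specificity phosphatase genes Dusp1, Dusp2, Dusp4, Dusp5, Dusp6 and Dusp10, the sprouty genes Spry1 and Spry2, and the SPRED genes Spred1 and Spred2. Other genes of the same kinds are described beside them. The 10 genes were taken by symbol from the deposited table of read counts, which held all of them among 35275 genes. The cells were TEa cells of C57BL/6 strain, whose transgenic T cell receptor recognises a peptide of the class II chain I-E alpha, sorted from spleen after adoptive transfer. In the Effector library the recipients were wild-type C57BL/6 mice that carried a Balb/c skin graft. In the Exhaust library the recipients were CB6F1 mice, for which the labels mention no graft. These mice are hybrids that inherit the antigen from their Balb/c parent and so present it throughout the body. The series contrasts a moderate with an abundant supply of this antigen, without stating in the sources used here which library is which. Recipient strain and grafting differ between the libraries as well and cannot be told apart from antigen supply. Each group was 1 library, with no age, time after transfer or number of pooled animals given in the labels used here, so nothing below has a replicate check.

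The MAP kinase cascades carry the signal of the T cell receptor from RAS through RAF and MEK to ERK, and in parallel arms to JNK and p38. Dual-specificity phosphatases remove the phosphates that activate these kinases, and several are themselves transcribed in response to ERK, which closes a feedback loop. Sprouty proteins act further up and blunt the activation of RAS and RAF, and SPRED proteins bring the RAS inhibitor neurofibromin to the membrane. In T cells such feedback is known to set how long and how strongly antigen signals last.

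The libraries held 7844445 counted reads for Effector and 8508129 for Exhaust. The 9999 genes whose reads in the pair of libraries summed to 50 or more are called measured. Reads were scaled by effective library size and are given as CPM, the usual depth-normalised read count. A gene was called higher or lower in Exhaust when the ratio of scaled reads was at least 2-fold and its 95% counting interval excluded equality. That interval covers counting error only and not differences between animals. By this rule 6.65% of all measured genes were higher and 7.07% were lower, 13.7% together. All 10 T cell markers were measured, of which Thy1 (835 and 372 reads) and Trac (22526 and 11561) were lower and 8 were neither. Of 42 genes listed as markers of other spleen cells, 12 had 0 reads in both libraries. Among these 12 were Cd8a, Ms4a1, Ly6g, Fcgr1, Siglech and Clec9a, though other genes of their lists had reads. Of the 42, 8 were measured, with 2 higher and 5 lower in Exhaust. The higher ones were Itgam (22 and 183 reads) and Klrb1c (36 and 229). The lower ones were Cd8b1 (164 and 81), Ighm (7540 and 3851), Ccr2 (95 and 3), Eomes (53 and 10) and Hba-a1 (50 and 6), and Mpo (39 and 49) was neither. Markers under 50 reads with more in Effector included S100a8 (30 and 1), S100a9 (32 and 2), Lyz2 (37 and 10), Csf1r (18 and 4), Cd79b (12 and 2) and Hbb-bs (33 and 4). Those with more in Exhaust included Cd79a (8 and 18), Zbtb46 (22 and 26) and Cd68 (8 and 11). Summed reads were 114 and 67 for the neutrophil list, 114 and 15 for the erythroid list and 182 and 211 for the macrophage and monocyte list. The summed level of each of the 8 lists ran from 1.66 to 963 CPM in Effector and from 0.353 to 456 in Exhaust, the top of each range being the B cell list, nearly all of it Ighm. The part of these cells in the results was not tested.

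The feedback genes did not move as a block. Of the 9 measured members, Spry1, Spred1 and Spred2 were higher in Exhaust, Dusp10 was lower, and Dusp1, Dusp2, Dusp4, Dusp5 and Dusp6 were neither. That is 3 of 9 higher and 1 of 9 lower, beside backgrounds of 6.65% and 7.07% over all measured genes. Spry2 was not measured, with 0 and 3 reads. The 3 higher members were all of the measured sprouty and SPRED genes, and the only lower member was a phosphatase gene. The median log2 ratio of the 9 was -0.11, against -0.002 over all measured genes. In bulk libraries, more cells of a kind and more RNA per cell cannot be told apart.

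**Figure D1:**
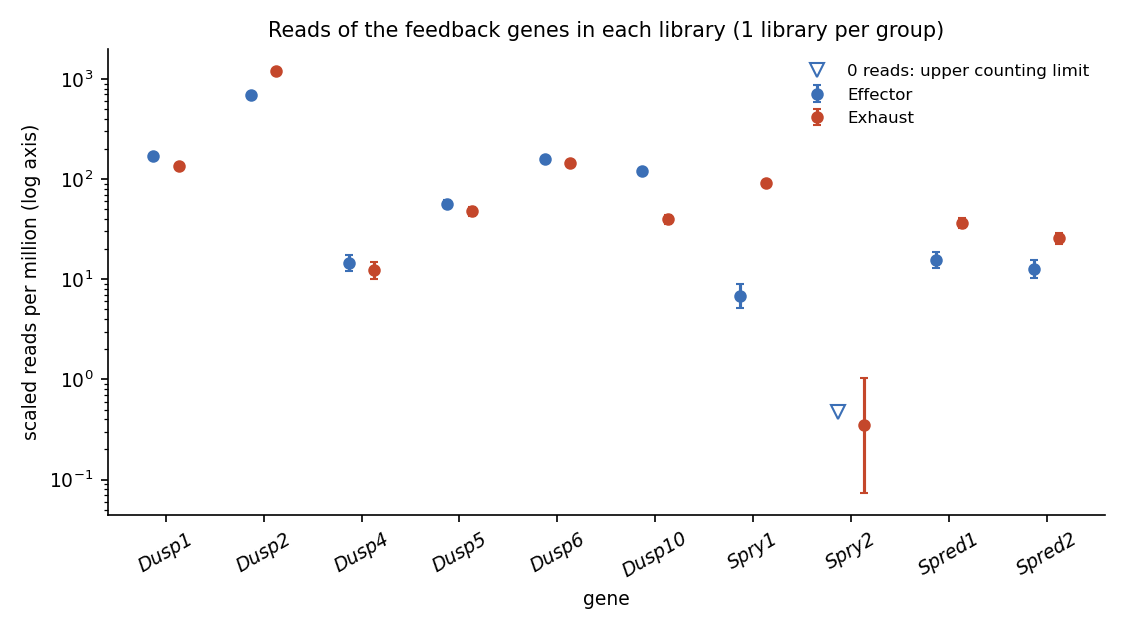
CPM from scaled reads, on a log axis, of each feedback gene in the Effector and the Exhaust library, 1 library per group, with 95% counting intervals as bars and an open triangle at the upper counting limit where a gene had 0 reads. Spry1 stands at 6.88 in Effector and 90.7 in Exhaust, Dusp10 stands the other way at 121.6 and 39.8, and Dusp2 is the most abundant in both.

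Spry1 encodes sprouty 1, an inhibitor of the RAS to ERK pathway that is induced in T cells by receptor engagement. Its gene (ENSMUSG00000037211, mm10 chromosome 3, 37639947 to 37644598, plus strand) had 54 reads in Effector and 771 in Exhaust. The 2 counts are far apart relative to counting error, at 6.88 (5.16 to 8.97) and 90.7 (84.4 to 97.4) CPM. The gene was 13.2-fold higher in Exhaust (95% counting interval 10.01 to 17.7), which placed it 77th from the top among 9999 ratios. In GENCODE M21 its exons share 710 bases with Gm42922, a predicted transcript on the other strand that has no row in the deposited counts. Whether reads were counted by strand is not known from the sources used here. Spry2, the paralog that also restrains RAS signalling (chromosome 14, 105891949 to 105896819, minus strand), had 0 reads in Effector and 3 in Exhaust, both at or under the floor of 3 reads, so no fold is given. Of the wider family, Spry4 had 3 and 19 reads and Spred3 had 0 in both, so neither was measured.

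The sequence before the Spry1 start site is shown because this gene has the largest ratio of the 10, and that of Dusp10 because it is the member that goes the other way. Both come from RefSeq windows of build GRCm38.p6 and give the 250 bases before the annotated start on the plus strand, chr3:37639697-37639946 for Spry1 and chr1:184034131-184034380 for Dusp10. Capitals mark matches on either strand to the GC box GGGCGG and the CCAAT box CCAAT.
Spry1: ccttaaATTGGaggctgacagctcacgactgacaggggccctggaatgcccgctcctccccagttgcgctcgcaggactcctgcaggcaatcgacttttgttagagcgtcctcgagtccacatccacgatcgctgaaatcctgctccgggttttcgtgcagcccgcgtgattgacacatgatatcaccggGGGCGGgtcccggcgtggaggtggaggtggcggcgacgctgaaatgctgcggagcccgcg
Dusp10: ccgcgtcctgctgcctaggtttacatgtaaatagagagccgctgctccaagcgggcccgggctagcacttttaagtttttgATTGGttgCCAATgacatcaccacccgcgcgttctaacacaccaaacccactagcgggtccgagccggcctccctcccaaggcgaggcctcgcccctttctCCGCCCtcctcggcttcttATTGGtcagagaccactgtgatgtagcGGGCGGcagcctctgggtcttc
The Spry1 stretch holds 2 such matches and the Dusp10 stretch 5. The Dusp10 window belongs to a start site within the span of the table's gene model, downstream of its first base.

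The SPRED genes encode membrane adaptors with an EVH1 domain that recruit neurofibromin, the product of Nf1, to RAS. Spred1 (ENSMUSG00000027351, chromosome 2, 117121374 to 117182279) had 122 reads in Effector and 313 in Exhaust and was 2.37-fold higher (1.92 to 2.95). Spred2 (ENSMUSG00000045671, chromosome 11, 19924375 to 20024026) had 100 and 218 reads. Its ratio of 2.02-fold (1.58 to 2.58) lay just past the threshold, and it was 1.98 when the deeper library was thinned and 1.99 with a prior count, both under 2-fold. The proportion between the pair was alike within counting error. Spred1 had 1.22 reads per read of Spred2 in Effector and 1.44 in Exhaust, a ratio of ratios of 1.18 whose exact conditional interval (0.847 to 1.63) includes 1. Nf1 itself had 40 and 102 reads and was 2.36-fold higher (1.62 to 3.49).

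Together the 4 sprouty and SPRED genes had 276 reads in Effector and 1305 in Exhaust, 4.37-fold more after scaling (3.84 to 4.995). Spry1 held 19.6% of the reads of these 4 genes in Effector (exact Clopper-Pearson interval 15.1 to 24.7%) and 59.1% in Exhaust (56.4 to 61.8%).

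Among the inducible phosphatases of the nucleus, Dusp2 was by far the most abundant and the only one with the larger level in Exhaust. It encodes PAC-1, a phosphatase of ERK and p38 found mainly in blood cells (ENSMUSG00000027368, chromosome 2, 127336159 to 127338376). It had 5417 reads in Effector and 10141 in Exhaust. Its ratio of 1.73 (1.67 to 1.79) excluded both equality and 2-fold, so the gene was not called, and with a threshold of 1.5-fold it would be. By RPKM, the CPM per kilobase of gene length, it stood at 426.5 in Effector and 738.1 in Exhaust, which ranked it 110th and 50th among the 9999 measured genes. A ratio of like size was seen for Ptpn7, which encodes the haematopoietic tyrosine phosphatase of ERK and p38 and had 3888 and 7471 reads (1.78-fold, 1.71 to 1.85).

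The other nuclear phosphatase genes were slightly lower in Exhaust and none reached 2-fold. Dusp1, whose product MKP-1 acts on p38 and JNK and is induced by stress and glucocorticoids (ENSMUSG00000024190, chromosome 17, 26505590 to 26508519), had 1331 reads in Effector and 1145 in Exhaust. Its ratio was 0.795 (0.734 to 0.861). Dusp5, which encodes an ERK-specific phosphatase (ENSMUSG00000034765, chromosome 19, 53529109 to 53542431), had 440 and 404 reads, a ratio of 0.849 (0.740 to 0.974). Dusp4, which encodes MKP-2 (ENSMUSG00000031530, chromosome 8, 34807297 to 34819894), had 115 and 105 reads, and its ratio of 0.844 (0.642 to 1.11) was within counting error of equality. In GENCODE M21 Dusp5 shares 547 exonic bases with an antisense gene that has no row in the deposited counts. Dusp1, whose model there is longer than in the table, shares 11 with Ergic1 on the other strand (306 and 485 reads). The balance between Dusp1 and Dusp2 differed between the libraries. Dusp2 had 4.07 reads per read of Dusp1 in Effector and 8.86 in Exhaust, a 2.18-fold difference (1.996 to 2.37) that depends on neither scaling nor gene length.

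The windows from 250 bases before to 50 bases after the RefSeq starts hold motifs that differ between these 3 nuclear phosphatase genes, and the stretches around them are shown to place those motifs beside the counts. Capitals mark only the CRE TGACGTCA of Dusp1 (GRCm38.p6, chr17:26508598-26508625, minus strand), the EGR site GCGNGGGCG of Dusp2 (chr2:127336051-127336079, plus strand) and the adjacent pair of CArG boxes of Dusp5 (chr19:53529053-53529092, plus strand).
Dusp1: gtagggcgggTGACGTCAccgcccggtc
Dusp2: acgtgaagccGCGGGGGCGggcaccggcg
Dusp5: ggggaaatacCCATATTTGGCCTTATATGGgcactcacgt
Both strands were searched in 32851 windows of the same length. The CRE was found in 1.79% of them, the EGR site in 5.55% and the CArG box in 1.63%. Of the 9 windows matched to members, 1 held each of these motifs, namely those shown. The E-box CACGTG was in the Dusp1 and Dusp2 windows and in 7.15% of all windows. No member window held the AP-1 site TGACTCA (5.20% of windows), the ETS core CCGGAAG (8.86%) or the TATA box TATAAA (13.6%). The GC box was in 7 of the 9 windows and in 35.7% of all, and in Dusp2 it overlaps the EGR site. The Spred1 window, 1 of these 7, ends at base 117121120, before the first base of the table's gene model (117121374). Its last bases were not found in a GENCODE M21 transcript of Spred1. The CCAAT box was in 4 of the 9, those of Dusp6, Dusp10, Spry1 and Spred2, and in 37.4% of all. A match is a string in the sequence and not evidence of binding.

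Dusp6, the gene of the cytoplasmic ERK phosphatase MKP-3 and a standard readout of ERK activity (ENSMUSG00000019960, chromosome 10, 99263231 to 99267488), was nearly level. It had 1244 reads in Effector and 1243 in Exhaust, a ratio of 0.924 (0.853 to 1.0). Its close relative Dusp7 had 822 and 839 reads (0.944, 0.856 to 1.04), and the third gene of this class, Dusp9, had 3 and 0. Dusp4 and Dusp5 stood to Dusp6 in proportions that were alike within counting error, with ratios of ratios of 0.914 (0.686 to 1.22) and 0.919 (0.784 to 1.08). Altogether 4 of the 6 phosphatase members had ratios between 0.795 and 0.924.

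Dusp10 encodes MKP-5, which acts on JNK and p38 and is known to limit cytokine production by T cells. Its gene (ENSMUSG00000039384, chromosome 1, 184013302 to 184075636) had 955 reads in Effector and 338 in Exhaust. It was 3.06-fold lower in Exhaust (2.70 to 3.47), ranking 350th from the bottom among 9999. Dusp16, the other measured gene of this class, which encodes MKP-7, had 5 and 55 reads and was 10.2-fold higher (4.10 to 32.6), with a wide interval because of its 5 reads. Dusp8, with 0 and 1 reads, was not measured. Dusp10 thus had 191.0 reads per read of Dusp16 in Effector and 6.15 in Exhaust, a 31.0-fold difference (12.4 to 100.1) in a pair chosen after the values were seen. The level of Dusp16 stayed far under that of Dusp10 in both libraries, at 0.125 and 1.27 against 43.6 and 14.3 RPKM.

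**Figure D2:**
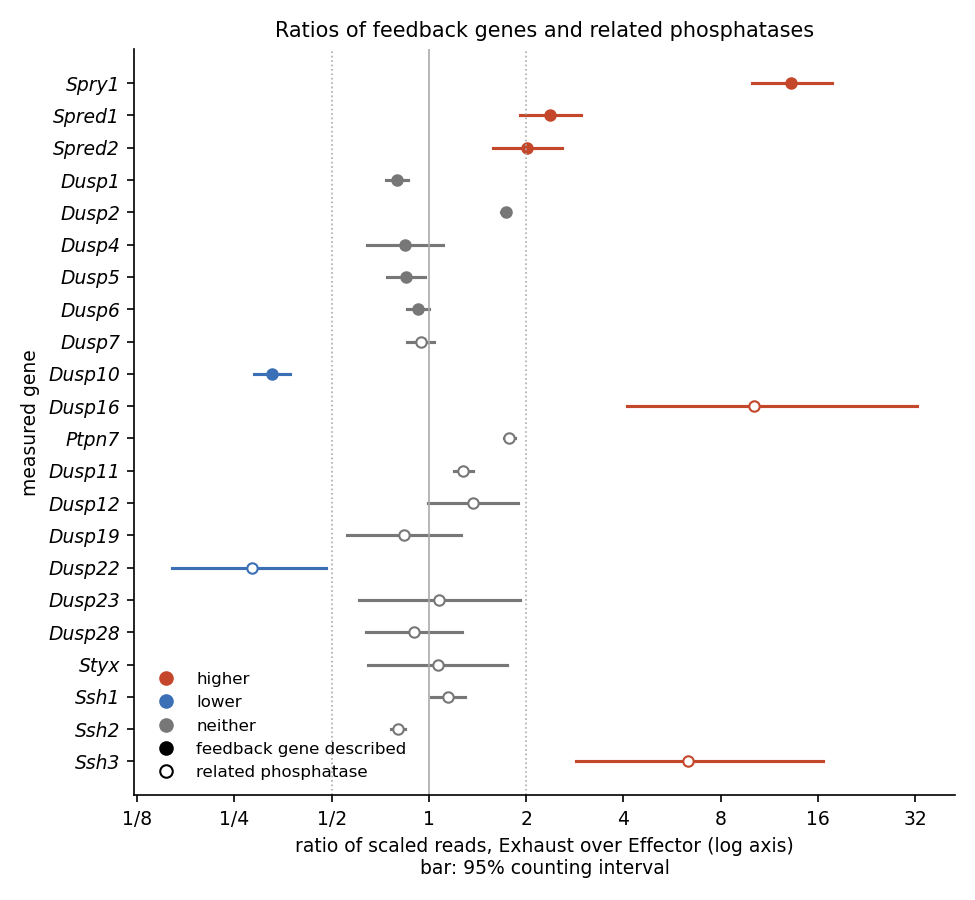
Ratio of scaled reads, Exhaust over Effector (log axis), for the measured feedback genes (filled points) and related phosphatase genes (open points), with 95% counting intervals as bars and dotted lines at 2-fold. Spry1 at 13.2 and Dusp16 at 10.2 lie farthest right, Dusp10 at 0.327 and Dusp22 at 0.283 farthest left, and most phosphatase genes lie between the dotted lines.

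Of 10 measured genes of atypical dual-specificity phosphatases and slingshots, most of which are not MAP kinase feedback enzymes, 1 was higher, 1 lower and 8 neither. Ssh3, of the cofilin phosphatase family, had 7 and 48 reads and was 6.34-fold higher (2.85 to 16.6). Dusp22, a regulator of T cell receptor signalling also called JKAP, had 62 and 19 and was 3.53-fold lower (2.08 to 6.25). Dusp12 (69 and 102 reads, ratio 1.37, 0.997 to 1.88) and Dusp11 (1468 and 2033 reads, ratio 1.28, 1.20 to 1.37) were neither. The list's median log2 ratio was 0.10. Of the remaining MAP kinase tyrosine phosphatase genes, Ptpn5 had 0 and 16 reads and Ptprr 0 and 1.

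Per unit of length, the levels of the 10 genes spanned a wide range, and their order differed between the libraries. In Effector the order was Dusp2 (426.5 RPKM), Dusp1 (73.3), Dusp6 (56.6), Dusp10 (43.6), Dusp5 (22.7), Dusp4 (5.34), Spred2 (2.86), Spred1 (2.58), Spry1 (2.48) and Spry2 (0). The neighbours Spred2, Spred1 and Spry1 had overlapping counting intervals. In Exhaust it was Dusp2 (738.1), Dusp1 (58.3), Dusp6 (52.3), Spry1 (32.7), Dusp5 (19.2), Dusp10 (14.3), Spred1 (6.12), Spred2 (5.77), Dusp4 (4.51) and Spry2 (0.169). There Dusp1 and Dusp6 overlapped, and so did Spred1 with Spred2 and Spred2 with Dusp4. Spry1 thus stood 9th in Effector and 4th in Exhaust, and Dusp10 4th and 6th. Among all measured genes Spry1 ranked 8862nd by level per length in Effector and 2643rd in Exhaust, and Dusp10 2019th and 5049th.

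Shares within a library need no scaling between libraries. Dusp2 held 55.4% of the 9778 reads of the 10 genes in Effector (54.4 to 56.4%) and 69.1% of the 14681 in Exhaust (68.3 to 69.8%). Spry1 held 0.552% and 5.25%, Dusp10 9.77% and 2.30%, Dusp1 13.6% and 7.80%, and Dusp6 12.7% and 8.47%. Sprouty and SPRED genes together held 2.82% of the reads in Effector (2.50 to 3.17%) and 8.89% in Exhaust (8.43 to 9.36%). Divided by gene length, their share was 1.25% and 4.81%, Dusp2 being 1617 bases long in the table and Spred1 and Spred2 6016 and 4449. Summed over the 6 phosphatase genes, scaled reads were 1.30-fold higher in Exhaust (1.27 to 1.34). Without Dusp2, the other 5 summed to a ratio of 0.732 (0.699 to 0.767), so the direction of the sum rests on Dusp2.

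**Figure D3:**
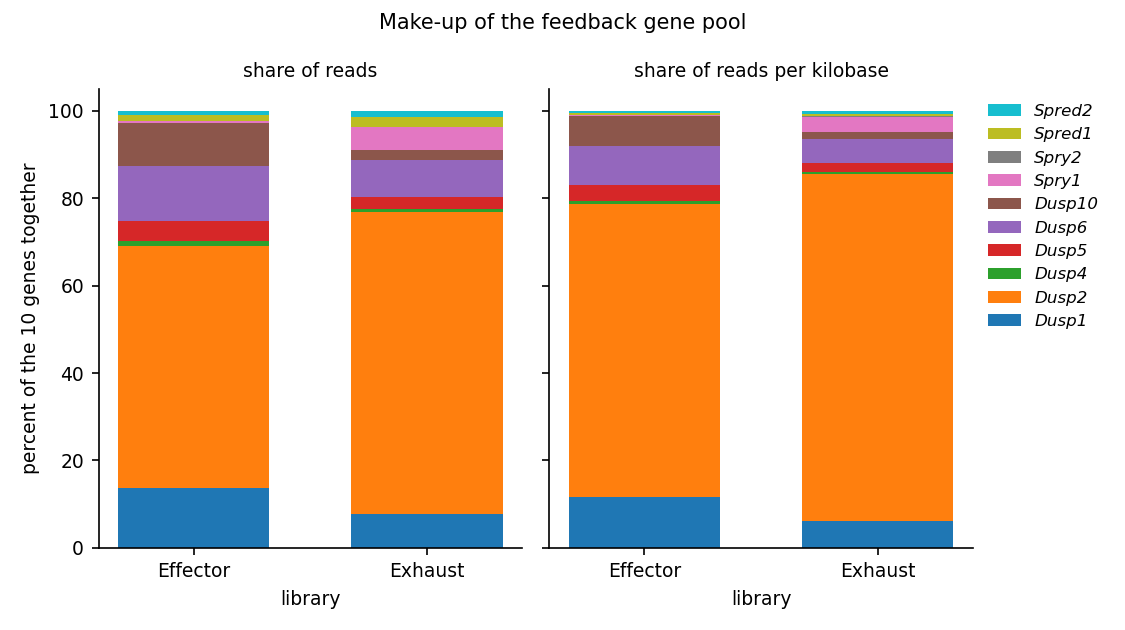
Share (percent) of each feedback gene among the 10 together, in each library, as reads (left) and as reads per kilobase (right). Dusp2 fills 55.4% of the Effector bar and 69.1% of the Exhaust bar on the left, and the Spry1 segment is a thin line in Effector (0.552%) and a band in Exhaust (5.25%).

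**Figure D4:**
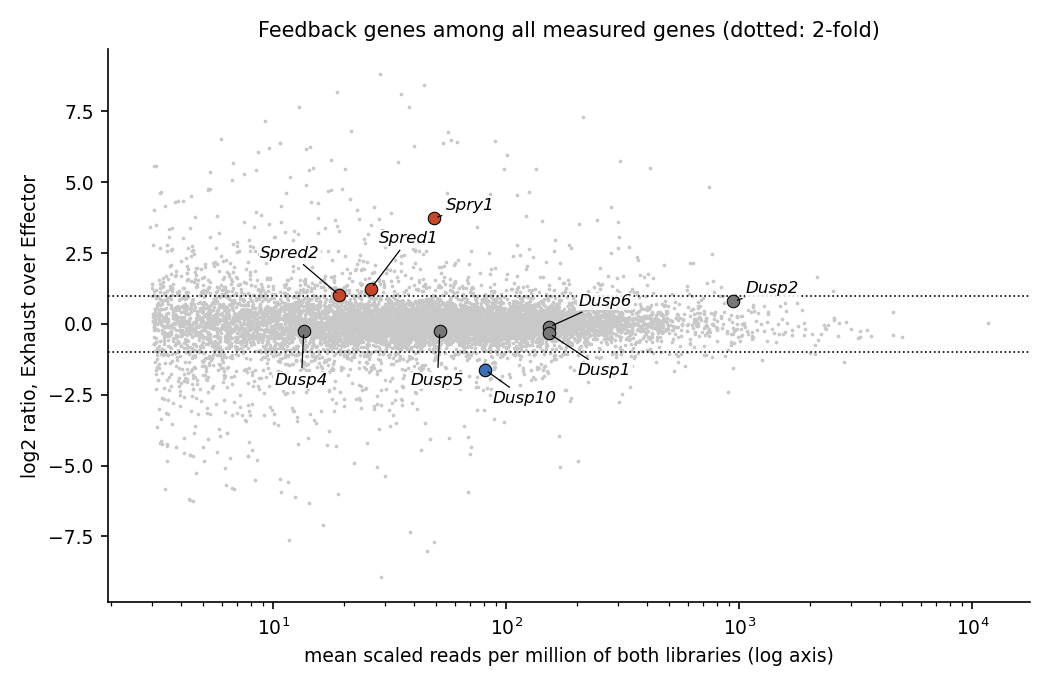
Log2 ratio, Exhaust over Effector, against the mean over both libraries of CPM (log axis) for all 9999 measured genes in grey, with the 9 measured feedback genes marked by call (red higher, blue lower, dark grey neither). Spry1 at 3.72 and Dusp10 at -1.61 lie apart from the dense band, Spred1 and Spred2 lie above the upper 2-fold line, and the rest lie between the lines.

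The genes of kinases and RAS regulators in the same pathways were mostly within 2-fold. The 7 kinase genes of the ERK cascade were all measured and had a median log2 ratio of -0.34, with 0 higher, 1 lower and 6 not called. The lower one was Mapk7, the gene of ERK5 (294 and 106 reads, 3.0-fold, 2.40 to 3.78). Mapk3, which encodes ERK1, had 290 and 200 reads (ratio 0.638). Map2k1, the gene of MEK1, had a ratio of 0.706 (999 and 763 reads), and Map3k8, which encodes the MEK kinase TPL2, of 1.53 (170 and 282).

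Upstream, 2 of 10 measured RAS activator genes were lower and none higher, with a median of -0.22. Lat, the adaptor gene that links the receptor to RAS, had 5681 and 2963 reads (2.07-fold lower, 1.98 to 2.17), and the adaptor gene Gab3 had 178 and 73 (2.64-fold lower, 1.998 to 3.51). Rasgrp1, the main RAS exchange factor gene of T cells, had 7036 and 4405 reads (ratio 0.579), and Sos2 had 409 and 691 (1.56). The RAS and RAF list had 10 measured genes and a median of -0.15. It held 1 higher and 1 lower gene, and 8 genes were not called. Rras2, the gene of the RAS relative TC21, had 338 and 12 reads (30.5-fold lower, 17.2 to 59.6), and the RAF scaffold gene Ksr1 had 36 and 84 (2.16-fold higher, 1.44 to 3.28). Nras, a RAS gene, had 1379 and 927 reads (ratio 0.622). Among 6 measured genes of RAS GTPase activating proteins the median was 0.09, and Nf1 was higher while 5 were not called. Rasal1, Rasa3 and Rasa1 had ratios of 0.616, 0.835 and 1.17.

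In the JNK arm none of 8 measured kinase genes was called, and the median was 0.03. Map3k11, Map3k1, Map3k4 and Mapk9 had ratios of 1.60, 1.47, 1.46 and 0.754. The p38 arm had 9 measured genes with a median of -0.08, of which 2 were higher and 1 was lower. Mapk12, the gene of p38 gamma (chromosome 15, 89130585 to 89140703), had 8 reads in Effector and 674 in Exhaust and was 77.9-fold higher (39.3 to 181). Mapk11, the gene of p38 beta, had 1307 and 2899 reads and was 2.05-fold higher (1.92 to 2.19). Mapk14, the gene of p38 alpha, was not called (1918 and 1617 reads, ratio 0.779). Map2k6, which encodes an activating kinase of p38, had 98 and 47 reads and was 2.26-fold lower (1.58 to 3.27), and Map3k5, which encodes ASK1, had a ratio of 1.89 (693 and 1417 reads). Beside these p38 kinase genes, the p38 phosphatase gene Dusp10 was lower and Dusp16 higher, as given above.

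Among genes transcribed in response to ERK, outside the feedback genes, 5 of 13 measured were higher, 2 lower and 6 neither. Their median was 0.31. Beside this and the other list counts stand 6.65% higher and 7.07% lower over all measured genes. The 6 called neither were Egr1 (ratio 1.76), Myc (1.24), Ier2 (1.195), Nr4a1 (1.11), Ier5 (1.11) and Phlda1 (0.956). The early growth response genes Egr3 (28 and 111 reads, 3.67-fold, 2.40 to 5.76) and Egr2 (357 and 1321 reads, 3.42-fold, 3.04 to 3.86) and the ETS factor gene Etv5 (99 and 329 reads, 3.07-fold, 2.45 to 3.89) were higher. So were the AP-1 gene Fosl2 (19 and 60 reads, 2.92-fold, 1.72 to 5.18) and the cytokine gene Lif (22 and 61 reads, 2.56-fold, 1.55 to 4.38). Fos, the AP-1 subunit gene, was 2.91-fold lower (1585 and 590 reads, 2.64 to 3.20), and Errfi1, the gene of a receptor feedback inhibitor, 3.13-fold lower (107 and 37 reads, 2.13 to 4.68). The list of ERK effector kinases and nuclear factors had 16 measured genes and a median of 0.22, with 2 higher, 1 lower and 13 not called. Rps6ka5 (2.24-fold, 1.82 to 2.76) and the ETS repressor gene Erf (2.40-fold, 1.30 to 4.69) were higher, Rps6ka2 was 2.76-fold lower (1.99 to 3.86), and Elk4 had a ratio of 1.98.

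The genes of sprouty and SPRED partners had a median of 0.22 over 11 measured, and 3 of them were higher while 8 were not called. Ptpn11, which encodes the phosphatase SHP2 that counteracts sprouty, had 330 and 1854 reads and was 5.19-fold higher (4.62 to 5.86). Siah2, the gene of a ubiquitin ligase of sprouty proteins, had 139 and 432 reads (2.87-fold, 2.37 to 3.50), and Nf1 was the third. Cblb, whose product is a ubiquitin ligase of T cell signalling, had a ratio of 1.81 (1332 and 2605 reads) and was not called. Among the other genes named, those that share exonic bases with a gene on the other strand in GENCODE M21 include Mapk7, Ksr1, Rasa1, Map3k11, Elk4, Dusp8, Dusp11, Dusp12, Spred3, Ptprr, Jun, Junb, Jund and Hspa1a. Reads of such partners cannot be told apart without a strand setting.

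**Figure D5:**
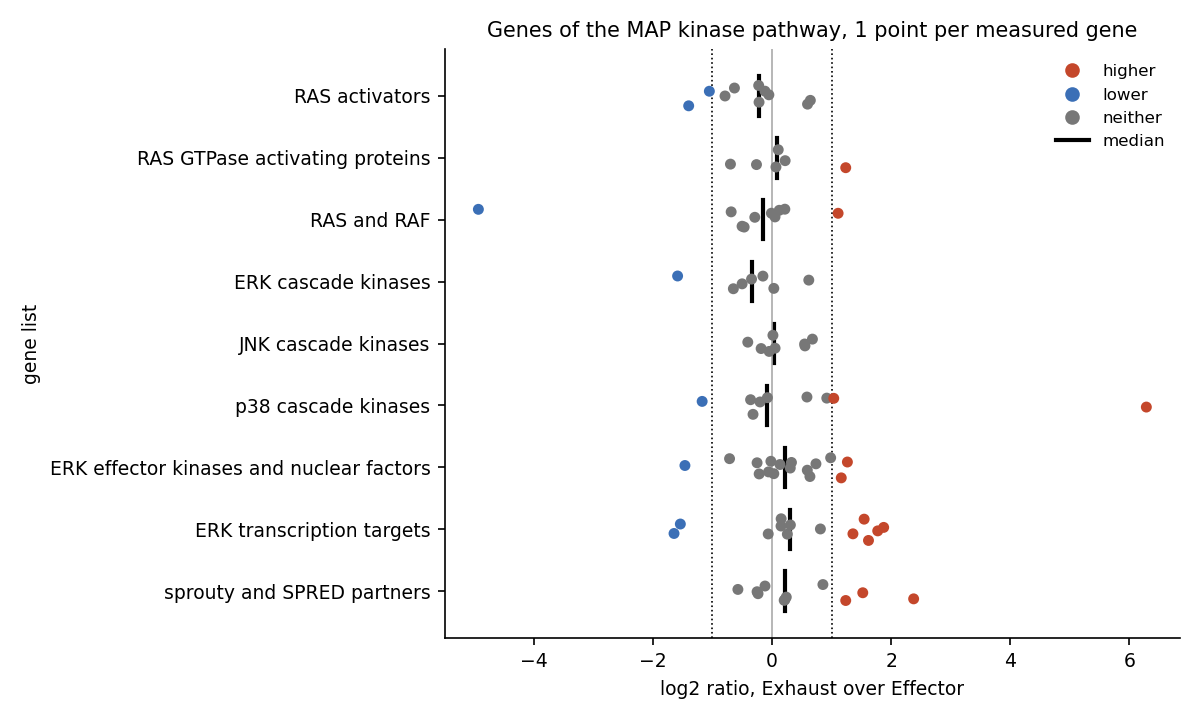
Log2 ratio, Exhaust over Effector, of each measured gene in 9 lists of the MAP kinase pathway, coloured by call, with a black bar at each list's median and dotted lines at 2-fold; vertical scatter within a row has no meaning. Medians run from -0.34 for ERK cascade kinases to 0.31 for ERK transcription targets, and Mapk12 at 6.28 and Rras2 at -4.93 lie farthest out.

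Dusp1, Fos and other early genes are also known to respond to cell handling and to glucocorticoids, so those genes are given beside them. Of 14 measured genes of the handling list 4 were higher, 1 lower and 9 neither. The higher ones were the heat shock genes Hspa1a (11 and 235 reads, 19.8-fold, 10.8 to 40.1), Hspa1b (63 and 1397 reads, 20.5-fold, 15.9 to 26.8), Hspa8 and Dnajb1 (3.24-fold, 3.03 to 3.46), Hspa1a and Hspa1b being near-identical genes that can share reads. The lower one was Fos. Among those called neither were the AP-1 genes Jun (898 and 572 reads, ratio 0.589), Junb (3533 and 2107, 0.551) and Jund (925 and 604, 0.604). Their counting intervals lay under equality. Also called neither, but with the larger level in Exhaust, were Egr1 (1650 and 3134 reads, ratio 1.76), Btg2 (1.31), Ier2 (1.195), Zfp36 (1.14) and Nr4a1 (1.11). All of these but Nr4a1 had intervals above equality. Of the 14 genes, 9 had the larger level in Exhaust and 5 in Effector. Of 6 measured glucocorticoid response genes Per1 was higher (90 and 253 reads, 2.599-fold, 2.04 to 3.34), Tsc22d3, which encodes GILZ, was lower (4949 and 2117 reads, 2.53-fold, 2.40 to 2.66), and 4 were neither, among them Dusp1 and the glucocorticoid receptor gene Nr3c1 (1094 and 1524 reads, ratio 1.29). The part of handling or of glucocorticoids in the feedback genes' values was not tested.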

How the data were processed

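The deposited data are 1 table of unnormalized counts, giving for every gene the whole number of reads in each of the 2 libraries and, per the file headers, its symbol, position, length and type. Per the labels' protocols, TEa cells were sorted and frozen, and their RNA, taken up in Trizol, went into a low-input kit. No molecular identifiers are recorded, so amplified copies can be counted more than once and make the intervals too narrow. Per the submitters' processing notes, STAR 2.6 and build mm10 were used. How reads were assigned to genes (program, strand, annotation release) is not given in the sources used here. The deposited gene length served for levels per kilobase.

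Columns were matched to samples by title. Effective library sizes were computed with edgeR 4.0.16 in R 4.3.3, by its TMM method over genes with at least 50 reads. The ratio of Exhaust to Effector was taken for each gene of the whole table, with the exact Clopper-Pearson 95% interval of the Exhaust reads among both libraries (scipy 1.17.1). A count of 0 was set to a floor of 3 reads. With 1 library per group no p-value was computed. Intervals of single levels are exact Poisson intervals. Exon overlaps were looked up in GENCODE M21, on the same assembly as mm10. Promoter windows came from RefSeq, in which 9 of the 10 genes matched by symbol and Dusp4 did not.

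The members and gene lists were chosen with earlier results of these data known. Named were all members, the other genes of the lists of nuclear, ERK and JNK or p38 dual-specificity phosphatases, of MAP kinase tyrosine phosphatases and of sprouty relatives where the table has them, and up to 4 measured genes of each other pathway list (atypical phosphatases included) with the largest absolute log2 ratio; those beyond this rule, such as Mapk14, Fosl2, Lif, Hspa8 and Ergic1, were chosen after their values were seen. Alternatives changed the scaling, read minimum, genes counted, depth, size rule and floor. A few list genes are not reported here by name.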

Additional observations from a re-analysis of the deposited data

How the results depend on the processing

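Each ratio was recomputed after scaling by total counts, by upper quartiles or by the size factors of DESeq2 1.42.0, and with protein-coding genes only, other read minimums, a thinned library, other size rules and a prior count of 2. The TMM method over all rows, and the pairs of Dusp10 with Dusp16 and Dusp6 with Dusp7, were chosen after seeing the data. No direction reversed among these alternatives. Over them Spry1 ranged from 12.8 to 13.4-fold higher and Dusp10 from 3.01 to 3.11-fold lower, both called under each of 11 settings. Spred2 was not called when the deeper library was thinned (1.975) or with the prior count (1.994), and neither Spred1 (2.372) nor Spred2 (2.015) had an interval wholly beyond 2-fold. With that stricter rule 1 of the 9 measured members was higher, and 408 of the 9999 measured genes were higher and 453 lower. Of the 113 measured pathway genes other than members, 13 were higher and 6 lower. The main rule gave 665 higher and 707 lower of the 9999, and 20 higher and 10 lower of the 113. With a 1.5-fold rule Dusp2 (1.731) became higher, 1371 of all genes were higher and 1359 lower, and 33 pathway genes were higher and 19 lower. Other read minimums change how many genes are measured, so their counts have other denominators. A read minimum of 1 gave 1040 higher and 1102 lower genes. A minimum of 500 gave 244 and 264, left 1 of the 10 genes higher since Dusp4, Spred1 and Spred2 were no longer measured, and gave 8 higher and 3 lower pathway genes. Divided by length, the phosphatase genes held 98.75% and 95.19% of the 10 genes' reads in Effector and Exhaust, and the sprouty and SPRED genes 1.246% and 4.808%. The other 147 recomputed values of results that answer a comparison kept their direction and call, or their size within the spread allowed. No paired analysis was possible because each group is 1 library and the labels carry no replicate numbers. For the same reason no replicate could be left out. Depth limits Spry2, for which 0 and 3 reads allow no ratio, and widens the intervals of Dusp16 and Mapk12, which rest on 5 and 8 Effector reads.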

Other observations

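Mapk12, the p38 gamma gene with the largest ratio in the pathway lists, was looked at with its neighbours after its value had been seen. Within 200 kb of it, 10 genes were measured, of which 2 were higher in Exhaust, none was lower and 8 were neither. The higher ones were Mapk11, 1783 bases away (2.05-fold), and Plxnb2, the gene of a plexin receptor (8 and 51 reads, 5.89-fold). On the other side Hdac10, 1885 bases away, had 602 and 1087 reads (1.67-fold). Within the same distance of Spry1 only Spata5 was measured, 60851 bases away, with 335 and 451 reads (1.25-fold, neither), and no measured gene lay that near to Dusp10.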
